A study of Mus musculus with 220 samples.

Results

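Lipocalin 2, the product of Lcn2, is a secreted protein that binds iron-carrying siderophores of bacteria and is made by hepatocytes, neutrophils and macrophages during inflammation. Livers of genetically matched mice still differ in Lcn2, and those differences were used here to find the genes that move with it inside a strain. The 30 mice with the highest Lcn2 relative to their own strain (Lcn2-high mice) were set against the 30 mice with the lowest (Lcn2-low mice). They were chosen by Lcn2 signal among 211 mice, those of 87 strains that had at least 2 mice each, out of 220 mice of 96 strains in all. The strain mean was subtracted from each probe set, a group of short DNA probes for 1 transcript, so that each value below is a within-strain value on the log2 scale, and 1 unit is a doubling of signal.

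All mice were female F1 offspring of a mother from an inbred strain and a transgenic C57BL/6J father. Both human transgenes, APOE-Leiden and CETP, make mice prone to high plasma lipids, and the sources used here do not give the promoters that drive them. Every mouse carried both and ate chow until 8 weeks of age and then a Western diet for 16 weeks, so that livers were taken at 24 weeks from both classes after the same diet. No inflammatory agent is named in the labels, and no transgene-free or chow-fed mice were part of the comparison. Each mouse gave 1 microarray of whole liver, and in such bulk tissue fewer cells of a type and less RNA per cell cannot be told apart. The labels do not give the litter, cage or day of collection.

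The Lcn2-high mice came from 28 strains and the Lcn2-low mice from 30 strains, and 27 strains had mice in both classes. The BXD recombinant inbred panel gave 19 of the Lcn2-high mice and 16 of the Lcn2-low mice. Classical inbred strains gave 5 and 6, the AXB/BXA panel 4 and 6, and the CXB and BXH panels 1 and 1 each. The BXD strain BXD24/TyJ-Cep290<rd16>/J, whose label names the rd16 allele of Cep290, gave 1 mouse to each class. Within-strain Lcn2 ran from 0.28 to 1.01 (median 0.42) in Lcn2-high mice, against -1.03 to -0.26 (median -0.48) in Lcn2-low mice. These are the values that chose the mice, so they carry no test. The last mouse inside the high class lay at 0.28 and the first outside it at 0.27, and on the low side both the last mouse inside and the first outside lay at -0.26. Before the strain mean was removed, the signal of Lcn2 averaged 11.22 ± 0.64 in Lcn2-high mice and 10.25 ± 0.86 in Lcn2-low mice (SD, n = 30 each). The gene was bright in all livers, and 1.24% of probe sets had a higher mean. In 12 of the 27 strains the 2 mice in the classes were the strain's only mice, and their within-strain values are then mirror images of each other.

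The acute phase response is the liver's switch in secreted proteins during inflammation. Cytokines, above all IL-1, TNF and the IL-6 family, reach hepatocytes and act through NF-kB, STAT3 and the C/EBP factors, which raise serum amyloid A, orosomucoid, haptoglobin and Lcn2 while the output of transthyretin, some clotting factors and several drug-metabolizing enzymes drops. Resident and recruited macrophages make many of these cytokines, and stellate cells and bile duct cells respond to the same injury with matrix and epithelial genes.

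The promoters of Lcn2 and of 6 genes that also rose with Lcn2 in mice of neither class are shown because the results turn on these genes. They were chosen with their motif matches known, 5 as genes with a match and Timp1 as one without. They are the 250 bases before and 50 bases after the start of each gene in RefSeq (GRCm38.p6), read 5′ to 3′ on the strand of the gene. Capitals mark matches to 3 short motifs searched on both strands, the C/EBP motif TTNNGCAA, the NF-kB motif GGANNTTCC and the STAT motif TTCNNNGAA, where N is any base. The regions are chr2:32387690-32387989 (minus strand) for Lcn2, chr7:46742931-46743230 (minus strand) for Saa1, chr7:46751583-46751882 (plus strand) for Saa2, chr4:63362199-63362498 (plus strand) for Orm2, chr5:7960222-7960521 (plus strand) for Steap4, chr5:90890995-90891294 (plus strand) for Cxcl1 and chrX:20869916-20870215 (plus strand) for Timp1.
Lcn2: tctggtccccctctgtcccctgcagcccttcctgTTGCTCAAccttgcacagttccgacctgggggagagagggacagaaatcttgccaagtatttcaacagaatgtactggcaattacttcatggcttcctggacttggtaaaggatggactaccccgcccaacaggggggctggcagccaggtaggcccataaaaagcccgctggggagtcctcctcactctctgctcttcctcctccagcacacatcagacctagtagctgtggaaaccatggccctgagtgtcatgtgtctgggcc
Saa1: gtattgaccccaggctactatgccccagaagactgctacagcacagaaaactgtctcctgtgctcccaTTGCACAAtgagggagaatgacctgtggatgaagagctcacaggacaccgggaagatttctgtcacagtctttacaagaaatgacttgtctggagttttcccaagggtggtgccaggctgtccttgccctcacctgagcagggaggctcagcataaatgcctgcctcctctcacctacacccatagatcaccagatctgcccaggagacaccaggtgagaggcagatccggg
Saa2: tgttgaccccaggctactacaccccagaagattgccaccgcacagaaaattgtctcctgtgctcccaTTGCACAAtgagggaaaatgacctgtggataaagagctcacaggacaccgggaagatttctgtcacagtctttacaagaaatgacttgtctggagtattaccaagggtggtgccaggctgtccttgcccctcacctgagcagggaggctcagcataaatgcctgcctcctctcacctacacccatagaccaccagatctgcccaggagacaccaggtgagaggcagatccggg
Orm2: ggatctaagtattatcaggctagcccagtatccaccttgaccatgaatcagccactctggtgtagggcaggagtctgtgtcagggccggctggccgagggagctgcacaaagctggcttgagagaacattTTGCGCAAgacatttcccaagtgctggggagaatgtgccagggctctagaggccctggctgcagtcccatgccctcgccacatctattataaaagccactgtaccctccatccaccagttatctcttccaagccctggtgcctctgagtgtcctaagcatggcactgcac
Steap4: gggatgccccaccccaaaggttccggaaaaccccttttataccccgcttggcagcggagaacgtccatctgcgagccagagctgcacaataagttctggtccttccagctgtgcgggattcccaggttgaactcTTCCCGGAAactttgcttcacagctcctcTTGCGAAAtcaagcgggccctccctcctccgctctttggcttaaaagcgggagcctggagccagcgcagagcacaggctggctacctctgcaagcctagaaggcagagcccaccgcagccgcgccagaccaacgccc
Cxcl1: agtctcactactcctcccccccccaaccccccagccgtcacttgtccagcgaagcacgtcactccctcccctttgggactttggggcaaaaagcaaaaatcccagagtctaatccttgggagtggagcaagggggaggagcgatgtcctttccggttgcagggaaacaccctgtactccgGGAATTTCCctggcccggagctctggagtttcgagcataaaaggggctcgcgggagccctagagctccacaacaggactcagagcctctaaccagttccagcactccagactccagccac
Timp1: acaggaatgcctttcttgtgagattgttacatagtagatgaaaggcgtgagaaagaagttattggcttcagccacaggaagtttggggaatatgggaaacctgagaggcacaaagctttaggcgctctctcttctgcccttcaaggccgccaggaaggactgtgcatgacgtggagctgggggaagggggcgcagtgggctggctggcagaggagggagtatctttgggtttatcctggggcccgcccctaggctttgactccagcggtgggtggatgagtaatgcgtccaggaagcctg

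Of 32851 promoter sequences of this length in the table, 10.8% held the C/EBP motif, 4.26% the NF-kB motif and 8.3% the STAT motif. The C/EBP motif stood in 7 of the 10 promoters matched to Lcn2 and the genes called in the other mice (Saa1, Saa2, Cxcl1, Orm2, Vnn3, Mmp12, Steap4, Timp1 and Naip2), the NF-kB motif in 1 and the STAT motif in 1. In Lcn2 the C/EBP match began 216 bases before the start, and in Orm2 the letters were TTGCGCAA, 120 bases before it. Saa1 and Saa2, neighbouring genes that arose by duplication, both held TTGCACAA, 182 and 183 bases before the start. Steap4 had a C/EBP match and a STAT match, and Cxcl1 an NF-kB match 70 bases before the start. Timp1 and Naip2 held none of the 3 motifs. Mmp12 has 2 promoters in the table, and the first was searched. The promoter of Cd14 was not analysed here. The matches overlap in none of the printed promoters, a match is not evidence of binding, and the windows leave out more distant sequence.

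Lcn2-high livers differed from Lcn2-low livers in a large share of the transcriptome. With strain held fixed, 2480 of 17096 genes were higher in Lcn2-high mice (14.5%) and 1498 were lower (8.76%). The calls are by limma with Benjamini-Hochberg adjusted p under 0.05 over all 45036 probe sets tested, each gene read from its brightest one. At an unadjusted p under 0.05 there were 5909 genes. Most called differences were small, with a median size of 0.18, while 175 genes were higher and 52 lower by more than 0.5. The median difference over all genes tested was -0.0042. These p-values measure the spread between mice of the same strain.

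The acute phase list held 28 measured genes other than Lcn2, and 14 of them were called higher and none lower, against 14.5% and 8.76% of all genes. The median difference of the list was 0.11. The largest differences among the called members were those of Cd14, Il1rn, Orm2 and Saa3. Saa1, a serum amyloid A that replaces apolipoprotein A-I on high-density lipoprotein, ran from -0.13 to 0.59 (median 0.18) in Lcn2-high mice, against -0.66 to 0.04 (median -0.17) in Lcn2-low mice. The ranges overlapped only between -0.13 and 0.04, and 26 of 30 Lcn2-high mice were above their strain mean while 28 of 30 Lcn2-low mice were below it. The difference was 0.38 ± 0.05 (SE, adjusted p = 9.26e-10), a 1.3-fold higher signal. Saa2 ran from -0.12 to 0.51 (median 0.18) in Lcn2-high mice, against -0.78 to 0.08 (median -0.18) in Lcn2-low mice, a difference of 0.40 ± 0.05 (adjusted p = 2.73e-10). Both genes are near-identical copies, so their probes may read each other's transcripts. Saa3, the form that macrophages and fat cells make, was higher by 0.56 ± 0.10 (adjusted p = 5.07e-06).

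Orm2, an orosomucoid that carries small basic and lipid-like molecules in plasma, ran from -0.12 to 0.66 (median 0.32) in Lcn2-high mice, against -0.73 to 0.12 (median -0.32) in Lcn2-low mice. Nearly all mice kept to their side of the strain mean, 29 of 30 above it in the high class and 28 of 30 below it in the low class. Its difference was 0.66 ± 0.07 (adjusted p = 1.75e-12). Cd14, the co-receptor that hands lipopolysaccharide to TLR4, ran from -0.06 to 1.39 (median 0.42) in Lcn2-high mice, against -1.39 to 0.06 (median -0.42) in Lcn2-low mice. It had the largest difference of the list, 1.01 ± 0.08 (adjusted p = 3.29e-18), a 2.01-fold higher signal. Lrg1, a leucine-rich glycoprotein of plasma, was higher by 0.43 ± 0.05 and Steap4, a metalloreductase induced by inflammation, by 0.44 ± 0.04. Il1rn, the secreted antagonist of the IL-1 receptor, was higher by 0.68 ± 0.07 (adjusted p = 5.99e-13).

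Haptoglobin (Hp), which binds free hemoglobin, ran from -0.07 to 0.18 (median 0.09) in Lcn2-high mice, against -0.24 to 0.02 (median -0.08) in Lcn2-low mice. The shift was small but even, and the difference of 0.18 ± 0.02 had an adjusted p of 4.94e-13. Ceruloplasmin (Cp), the copper-carrying ferroxidase, was higher by 0.20 ± 0.02 and in the Lcn2-high mouse of all 27 strains with both classes. Hemopexin (Hpx), which binds free heme, was higher by 0.09 ± 0.01, lipopolysaccharide binding protein (Lbp) by 0.27 ± 0.05, Serpina10, an inhibitor of clotting factors, by 0.10 ± 0.03 and C4bp, a complement inhibitor, by 0.10 ± 0.02.

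The other 14 acute phase genes did not pass, so the name acute phase response covers only part of what was measured. The fibrinogen chains Fga, Fgb and Fgg, the clot-forming proteins, had differences of -0.02 ± 0.03, -0.01 ± 0.02 and -0.01 ± 0.02. Fgb ran from -0.12 to 0.16 in Lcn2-high mice, against -0.12 to 0.12 in Lcn2-low mice, so the classes overlapped almost fully. C-reactive protein (Crp) had a difference of -0.02 ± 0.03 and hepcidin (Hamp), which blocks iron export, of -0.05 ± 0.06. Itih4 and Itih3, which belong to the inter-alpha-trypsin inhibitor family, had differences of -0.02 ± 0.02 and 0.08 ± 0.03, and serum amyloid P (Apcs) of 0.08 ± 0.04. Serpina3n, an acute phase protease inhibitor, lay just outside the threshold at 0.11 ± 0.04 (adjusted p = 0.0526). Saa4, Orm3, Mt1, Fgl1 and Slc39a14 had differences of 0.11, 0.25, 0.14, 0.06 and -0.06. The probe sets of Fgb, Fgg and Hp averaged 12.89, 12.81 and 13.10 on a scale that reached 13.94, and the part of that upper limit in the differences was not tested.

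**Figure D1:**
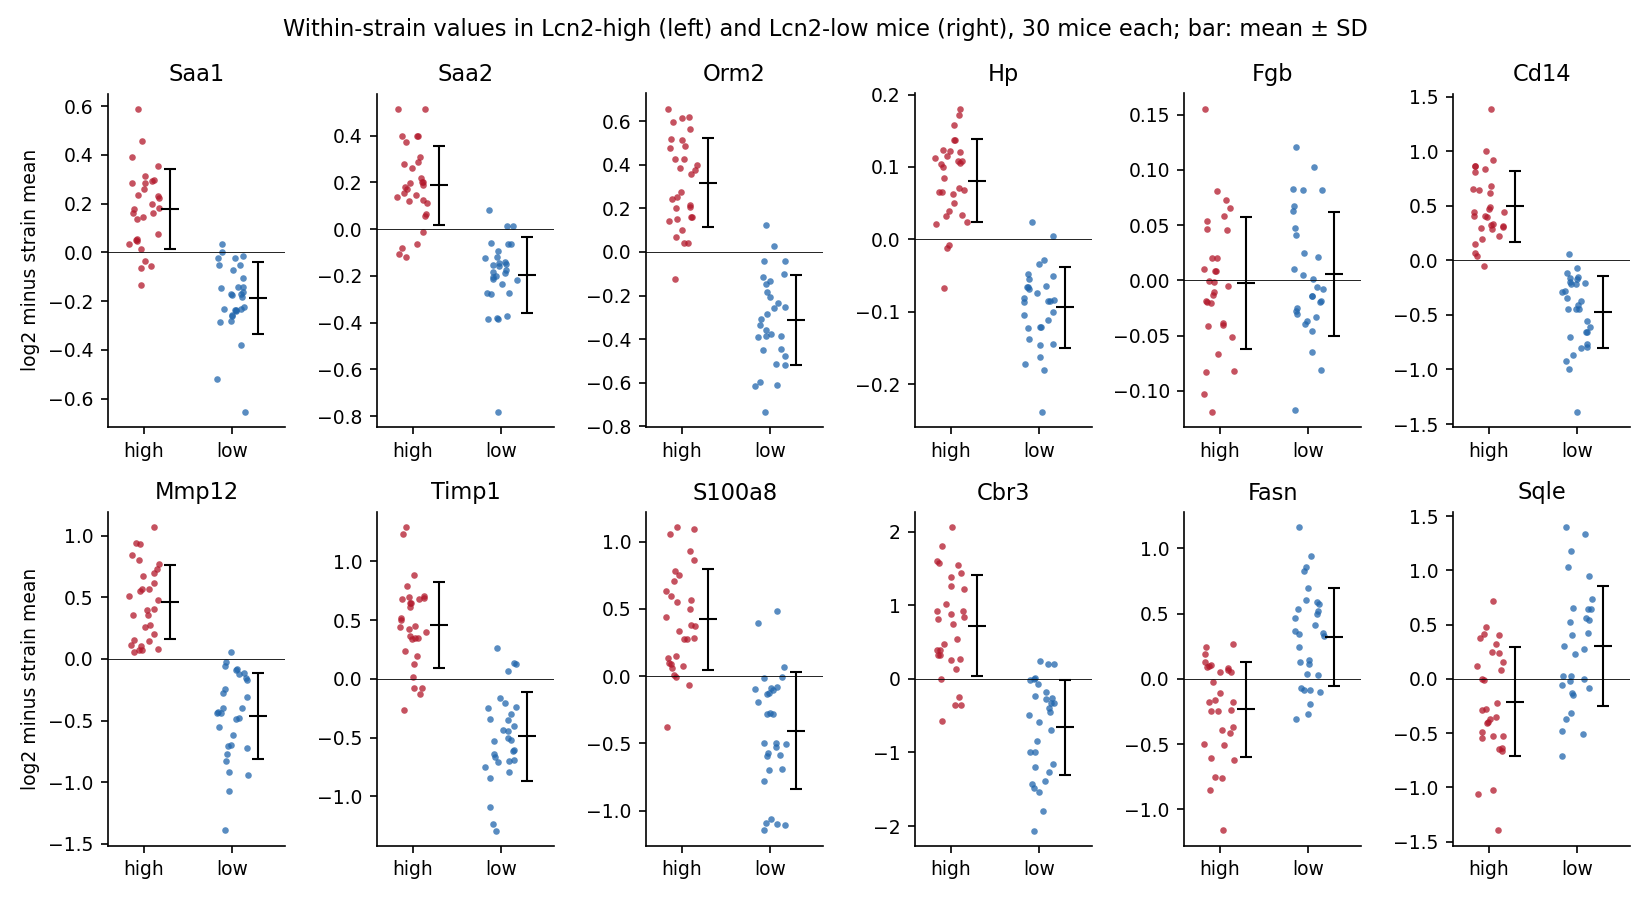
Within-strain log2 values (vertical axes, signal minus strain mean) of 12 genes in the 30 Lcn2-high mice (red, left) and the 30 Lcn2-low mice (blue, right), with points for single mice and a bar for mean ± SD; vertical scales differ between genes. Fgb overlapped almost fully, while all 30 Lcn2-high mice had Mmp12 above the strain mean.

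Negative acute phase genes encode proteins that drop in this response. Of 14 measured 5 were lower in Lcn2-high mice and none was higher, with a list median of -0.06. Hgfac, the protease that activates hepatocyte growth factor, ran from -0.42 to 0.04 (median -0.14) in Lcn2-high mice, against -0.11 to 0.42 (median 0.15) in Lcn2-low mice. It was lower in the Lcn2-high mouse in 26 of the 27 strains, with a difference of -0.32 ± 0.04 (adjusted p = 2.44e-10). Igfals, which holds insulin-like growth factors in plasma, differed by -0.34 ± 0.11, Serpina6, the corticosteroid-binding globulin, by -0.32 ± 0.05, F12, a clotting factor, by -0.12 ± 0.02 and Ttr, which carries thyroid hormone, by -0.06 ± 0.02. Albumin (Alb), the main plasma protein, had a difference of 0.01 ± 0.03, and Trf, Rbp4, Apoa1, Apoa4, Fetub, Tat, Igf1 and Serpina12 lay between -0.18 and 0.05 without a call.

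Most cytokine ligands were close to the array background in both classes. Of 13 measured ligands 9 averaged under 4, among them Il6, Tnf, Lif, Il11, Il17a, Csf3, Ifng and Il10, and none of these 8 was called. Il1b and Il1a, the IL-1 ligands, were higher by 0.28 ± 0.09 and 0.18 ± 0.05 (adjusted p = 0.0257 and 0.0145), Hgf, the growth factor of hepatocytes, by 0.17 ± 0.05 and Tgfb1, which drives matrix production and was the ninth ligand that averaged under 4, by 0.16 ± 0.05. Il18 was lower, with a difference of -0.14 ± 0.04. Of the 13 ligands 4 were thus higher and 1 lower, against 14.5% and 8.76% of all genes, a share lower close to that of all genes. The call for Il1b was lost in 7 of the 60 fits that left out 1 mouse, with the highest adjusted p, 0.0706, without BXD66/RwwJ replicate 1, and the call for Tgfb1 in 4, with 0.0702 without AXB8/PgnJ replicate 1.

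Of 16 measured cytokine and pattern receptors 10 were higher and 2 lower, against 14.5% and 8.76% of all genes, with a list median of 0.16. Tlr2, a receptor for bacterial lipoproteins, ran from -0.03 to 0.79 (median 0.21) in Lcn2-high mice, against -0.92 to 0.08 (median -0.20) in Lcn2-low mice, a difference of 0.56 ± 0.07 (adjusted p = 5.32e-11). Osmr, the oncostatin M receptor, was higher by 0.50 ± 0.07, Tlr4, the receptor for lipopolysaccharide, by 0.32 ± 0.06, Il10rb by 0.24 ± 0.04, Ifngr1 by 0.24 ± 0.04, Il1r1 by 0.23 ± 0.07, Ly96, the partner of TLR4, by 0.21 ± 0.06, Il17ra by 0.17 ± 0.04, Tnfrsf1b by 0.16 ± 0.04 and Tnfrsf1a by 0.08 ± 0.03. Lifr and Il1rap, the receptor for leukemia inhibitory factor and the accessory chain of the IL-1 receptor, were lower, with differences of -0.24 ± 0.05 and -0.20 ± 0.06. The dimmer probe sets of Il1rap, at -0.1, -0.03, -0.01 and 0.01, did not share its call, which was also lost in strains with 3 or more mice. The IL-6 receptor chains Il6ra and Il6st had differences of -0.10 ± 0.08 and 0.07 ± 0.03 and were not called, nor were Il18r1 and Tlr5. The calls for Tnfrsf1a and Il1rap were lost in 16 and 2 of the 60 fits that left out 1 mouse, with adjusted p up to 0.0794 without BXD75/RwwJ replicate 1 and up to 0.0525 without CXB3/ByJ replicate 1.

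Of 27 measured genes of STAT3 and NF-kB signalling 12 were higher and 2 lower, against 14.5% and 8.76% of all genes. The share lower was thus close to that of all genes, and the list median was 0.08. Tnfaip3, which shuts NF-kB signalling off, ran from 0.01 to 0.79 (median 0.21) in Lcn2-high mice, against -0.79 to 0.10 (median -0.26) in Lcn2-low mice. It was higher in the Lcn2-high mouse of all 27 strains, by 0.58 ± 0.06 (adjusted p = 2.23e-14). Relb and Nfkb2, NF-kB subunits, were higher by 0.58 ± 0.07 and 0.35 ± 0.05, Irak3, a brake on TLR signalling, by 0.49 ± 0.08, Nfkbiz and Nfkbia, inhibitors of the NF-kB family, by 0.34 ± 0.07 and 0.15 ± 0.04, and Bcl3, which binds NF-kB, by 0.30 ± 0.06. On the STAT3 side Socs3, its feedback inhibitor, was higher by 0.30 ± 0.08 (adjusted p = 0.00367) and Jak1 by 0.08 ± 0.03, a call that neither of its dimmer probe sets shared, while Stat3 had a difference of 0.07 ± 0.03 without a call. Cebpd, a C/EBP factor of the acute phase, was higher by 0.46 ± 0.07, Cebpb had a difference of 0.00 ± 0.05 and Cebpa was lower, at -0.15 ± 0.04. Fos and Myd88, the adaptor of TLR and IL-1 receptors, were higher by 0.43 ± 0.07 and 0.09 ± 0.03, and Pim3 differed by -0.29 ± 0.08. The other members, Jak2, Tyk2, Socs1, Socs2, Pim1, Rela, Ikbkb, Traf6, Birc3, Junb and Creb3l3, were not called. Without 1 mouse the call for Jak1 was lost in 4 of 60 fits (adjusted p up to 0.0713, without CXB3/ByJ replicate 1) and that for Myd88 in 6 (up to 0.0646, without BXD24/TyJ-Cep290<rd16>/J replicate 3).

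Of the partners of lipocalin 2 itself, 1 was called. Of the 3 measured genes of its receptors and siderophore, Slc22a17, a lipocalin receptor, and Mmp9, the protease that binds lipocalin 2, were near background with differences of 0.04 ± 0.05 and 0.05 ± 0.05. Bdh2, an enzyme assigned to mammalian siderophore synthesis, was lower, at -0.31 ± 0.07 (adjusted p = 0.000276). Of 19 measured genes of iron handling 6 were higher and 2 lower, against 14.5% and 8.76% of all genes, so that the share lower was close to that of all genes. The list median was 0.01. Hamp2, a paralog of hepcidin, ran from -0.91 to 0.21 (median -0.13) in Lcn2-high mice, against -0.21 to 0.90 (median 0.17) in Lcn2-low mice, a difference of -0.42 ± 0.08 (adjusted p = 3.36e-05). Its other probe set was not called, and Hamp and Hamp2 are close copies. Hmox1, which breaks heme down, was higher by 0.36 ± 0.11 and Tfrc, the transferrin receptor, by 0.24 ± 0.06.

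The largest differences lay outside the acute phase list. Cbr3, a carbonyl reductase, ran from -0.58 to 2.06 (median 0.78) in Lcn2-high mice, against -2.06 to 0.24 (median -0.47) in Lcn2-low mice. The classes overlapped, since 5 mice of each lay on the other side of the strain mean, but the difference was 1.44 ± 0.16 (adjusted p = 3.74e-12), a 2.71-fold higher signal. Ubd, a ubiquitin-like protein induced by inflammatory cytokines, was higher by 1.34 ± 0.17, Elovl7, a fatty acid elongase, by 1.12 ± 0.13, Chil3, a chitinase-like protein of myeloid cells, by 1.09 ± 0.15, Tspan8, a membrane tetraspanin, by 1.08 ± 0.18 and Cxcl14, a chemokine, by 1.06 ± 0.10. The rest of the 15 largest were Cd14, Timp1, Sprr1a, Nupr1, Derl3, Osbpl3, Mmp12, Ly6d and Abcc4, at 0.91 to 1.01. They include Abcc4, an exporter of bile acids, Derl3, a component of endoplasmic reticulum protein disposal, and Nupr1, a stress-induced nuclear protein.

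Mmp12, the elastase of macrophages, separated the classes. It ran from 0.06 to 1.07 (median 0.44) in Lcn2-high mice, against -1.39 to 0.05 (median -0.43) in Lcn2-low mice, and the ranges did not overlap. The difference was 0.96 ± 0.08 (adjusted p = 3.29e-18), and the gene was higher in the Lcn2-high mouse of all 27 strains. Of 25 measured macrophage and Kupffer cell genes 19 were higher and 1 lower, with a list median of 0.32. Gpnmb, Itgax and Trem2, marks of lipid-laden macrophages, were higher by 0.77 ± 0.10, 0.67 ± 0.09 and 0.62 ± 0.10, Lgals3 (galectin-3) by 0.55 ± 0.06 and the lysosomal marker Cd68 by 0.47 ± 0.06. A second, dim probe set of Trem2 went the other way, at -0.12 (adjusted p = 0.0262). Among Kupffer cell markers, Clec4f, Vsig4 and Timd4 had differences of -0.05, -0.06 and -0.15 without a call. Cd163, a scavenger receptor, was lower at -0.26 ± 0.07, but its signal averaged 2.52, at the bottom of the scale. These 4 genes were the only ones of the list with a negative difference, and the other 21 had a positive one. The summed signal of the list, on the linear scale, ran from 19200 to 36400 (median 28000) in Lcn2-high mice, against 14400 to 34700 (median 22100) in Lcn2-low mice.

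Many chemokines were higher too. Of 20 measured chemokines 12 were higher and none lower, with a list median of 0.36. Ccl2 and Ccl7, which draw monocytes, were higher by 0.77 ± 0.11 and 0.67 ± 0.10. Cxcl1, which draws neutrophils, ran from -0.09 to 0.92 (median 0.24) in Lcn2-high mice, against -1.07 to 0.21 (median -0.26) in Lcn2-low mice, a difference of 0.69 ± 0.08 (adjusted p = 4.44e-11). The interferon-induced Cxcl9 and Cxcl10 had differences of -0.16 and 0.25 and were not called. None of the 27 measured interferon response genes was called by limma, 3 had an unadjusted p under 0.05, and their median difference was 0.03, with Mx1, an antiviral GTPase, at 0.11 and Ifit1 at 0.04.

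Lcn2 is also a granule protein of neutrophils, so the neutrophil genes are given in full. Of 16 measured, 7 were higher and none lower, against 14.5% and 8.76% of all genes, with a list median of 0.14. S100a8 and S100a9, the calprotectin subunits, were higher by 0.86 ± 0.16 and 0.80 ± 0.14 (adjusted p = 7.74e-06 and 1.83e-06). S100a8 ran from -0.38 to 1.11 (median 0.37) in Lcn2-high mice, against -1.15 to 0.48 (median -0.39) in Lcn2-low mice, with overlap. The others called were Chil3, Csf3r (0.20 ± 0.06), Itgam (0.21 ± 0.06), Mmp8 (0.21 ± 0.07) and Il1r2 (0.14 ± 0.05), whose call was lost in 6 of 60 fits without 1 mouse (adjusted p up to 0.0555, without BXA4/PgnJ replicate 3). The granule genes that define immature and mature neutrophils, Ngp, Camp, Ltf, Elane, Mpo and Prtn3, averaged 3.11 to 3.62, close to background, and had differences of 0.16, 0.12, 0.07, -0.02, 0.10 and 0.14 with no call, nor were Cxcr2, Mmp9 and Stfa2l1 called. In all 12 of the 16 genes averaged under 4, the called genes Itgam, Mmp8 and Il1r2 among them. Csf3r, Mmp8 and Il1r2 lost the call in strains with 3 or more mice. The summed linear signal of the list ran from 238 to 859 (median 416) in Lcn2-high mice, against 170 to 650 (median 319) in Lcn2-low mice, and its part in the Lcn2 signal was not tested. None of 17 T and NK cell genes was called by limma, nor did any have an unadjusted p under 0.05. However, 14 of the 17 averaged under 4, where a change could be missed. Of 11 measured B and plasma cell genes 3 were higher (Derl3, Cd22 and Xbp1), against 14.5% of all genes. The list median was 0.0, with 6 positive and 5 negative differences. Cd22 and Xbp1 lost the call in strains with 3 or more mice. Of the 11 genes 6, Cd79a and Ms4a1 among them, averaged under 4.

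Matrix genes rose together. Of 23 measured genes of stellate cells and fibrosis 21 were higher and none lower, with a list median of 0.37. Timp1, the inhibitor of matrix proteases, ran from -0.26 to 1.29 (median 0.45) in Lcn2-high mice, against -1.29 to 0.26 (median -0.51) in Lcn2-low mice, a difference of 0.98 ± 0.09 (adjusted p = 4.29e-15). Mmp13, an interstitial collagenase, was higher by 0.86 ± 0.14, Col1a1, a chain of collagen type I, by 0.80 ± 0.09 and Lox, which cross-links collagen, by 0.80 ± 0.09. Lrat and Reln, genes of quiescent stellate cells, had differences of -0.01 and -0.02. The summed linear signal of the list ran from 7230 to 18000 (median 12800) in Lcn2-high mice, against 5910 to 17400 (median 9990) in Lcn2-low mice.

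Genes of bile duct cells had the highest list median, 0.47, with 11 of 13 measured genes higher and none lower. Slpi, a secreted protease inhibitor of epithelia, was higher by 0.87 ± 0.13. Epcam, a cell adhesion molecule of duct and progenitor cells, ran from -0.64 to 1.78 (median 0.16) in Lcn2-high mice, against -1.78 to 0.50 (median -0.30) in Lcn2-low mice. The classes overlapped over much of their range, and the difference was 0.70 ± 0.15 (adjusted p = 0.000124). Cd24a, a surface glycoprotein, was higher by 0.62 ± 0.11, Sox9, the transcription factor of duct cells, by 0.55 ± 0.09 and the duct keratin Krt19 by 0.49 ± 0.12. The summed linear signal ran from 3680 to 9430 (median 6370) in Lcn2-high mice, against 3100 to 8260 (median 4590) in Lcn2-low mice. These shifts in markers of other cell types stand beside the shift in Lcn2, and their part in it was not tested. Of 16 measured endothelial genes 4 were lower and none higher, against 8.76% and 14.5% of all genes. The list did not shift as a whole, since 9 of the 16 had a positive difference and the median was 0.02. Oit3 and Kdr differed by -0.23 ± 0.07 and -0.22 ± 0.06, and both lost the call in strains with 3 or more mice. Of 10 measured hepatocyte genes 5 were lower, by -0.13 at most (Asgr1, the asialoglycoprotein receptor, -0.13 ± 0.02).

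Most measured genes of the unfolded protein response, of NRF2 and of the immediate early response were higher. Of 20 measured genes of the unfolded protein response, which answers misfolded protein in the endoplasmic reticulum, 16 were higher and none lower, with a list median of 0.21. Atf3, a transcription factor of stress, ran from -0.11 to 0.95 (median 0.43) in Lcn2-high mice, against -1.02 to 0.12 (median -0.27) in Lcn2-low mice, a difference of 0.85 ± 0.09 (adjusted p = 4.68e-14). Trib3 and Ddit3, of the same pathway, were higher by 0.69 ± 0.10 and 0.63 ± 0.08 and the chaperone cofactor Sdf2l1 by 0.55 ± 0.07. Of 14 measured genes of NRF2 and oxidative stress 8 were higher and none lower, led by Srxn1, which repairs peroxiredoxins, at 0.82 ± 0.09. Of 17 immediate early genes 10 were higher and none lower, among them Egr2, Ier3 and Myc at 0.73 ± 0.07, 0.60 ± 0.09 and 0.60 ± 0.07. Of 9 heat shock genes Hspb1 alone was called, at 0.28 ± 0.07. Of 18 cell cycle genes 3 were higher, a share near the 14.5% of all genes. They were the inhibitor Cdkn1a (0.58 ± 0.11), Top2a (0.35 ± 0.13) and Mcm6 (0.29 ± 0.08), and Mki67, the usual mark of dividing cells, had a difference of 0.38 without a call. The call for Top2a was lost in 28 of 60 fits without 1 mouse, with an adjusted p of up to 0.139 without CXB3/ByJ replicate 1.

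**Figure D2:**
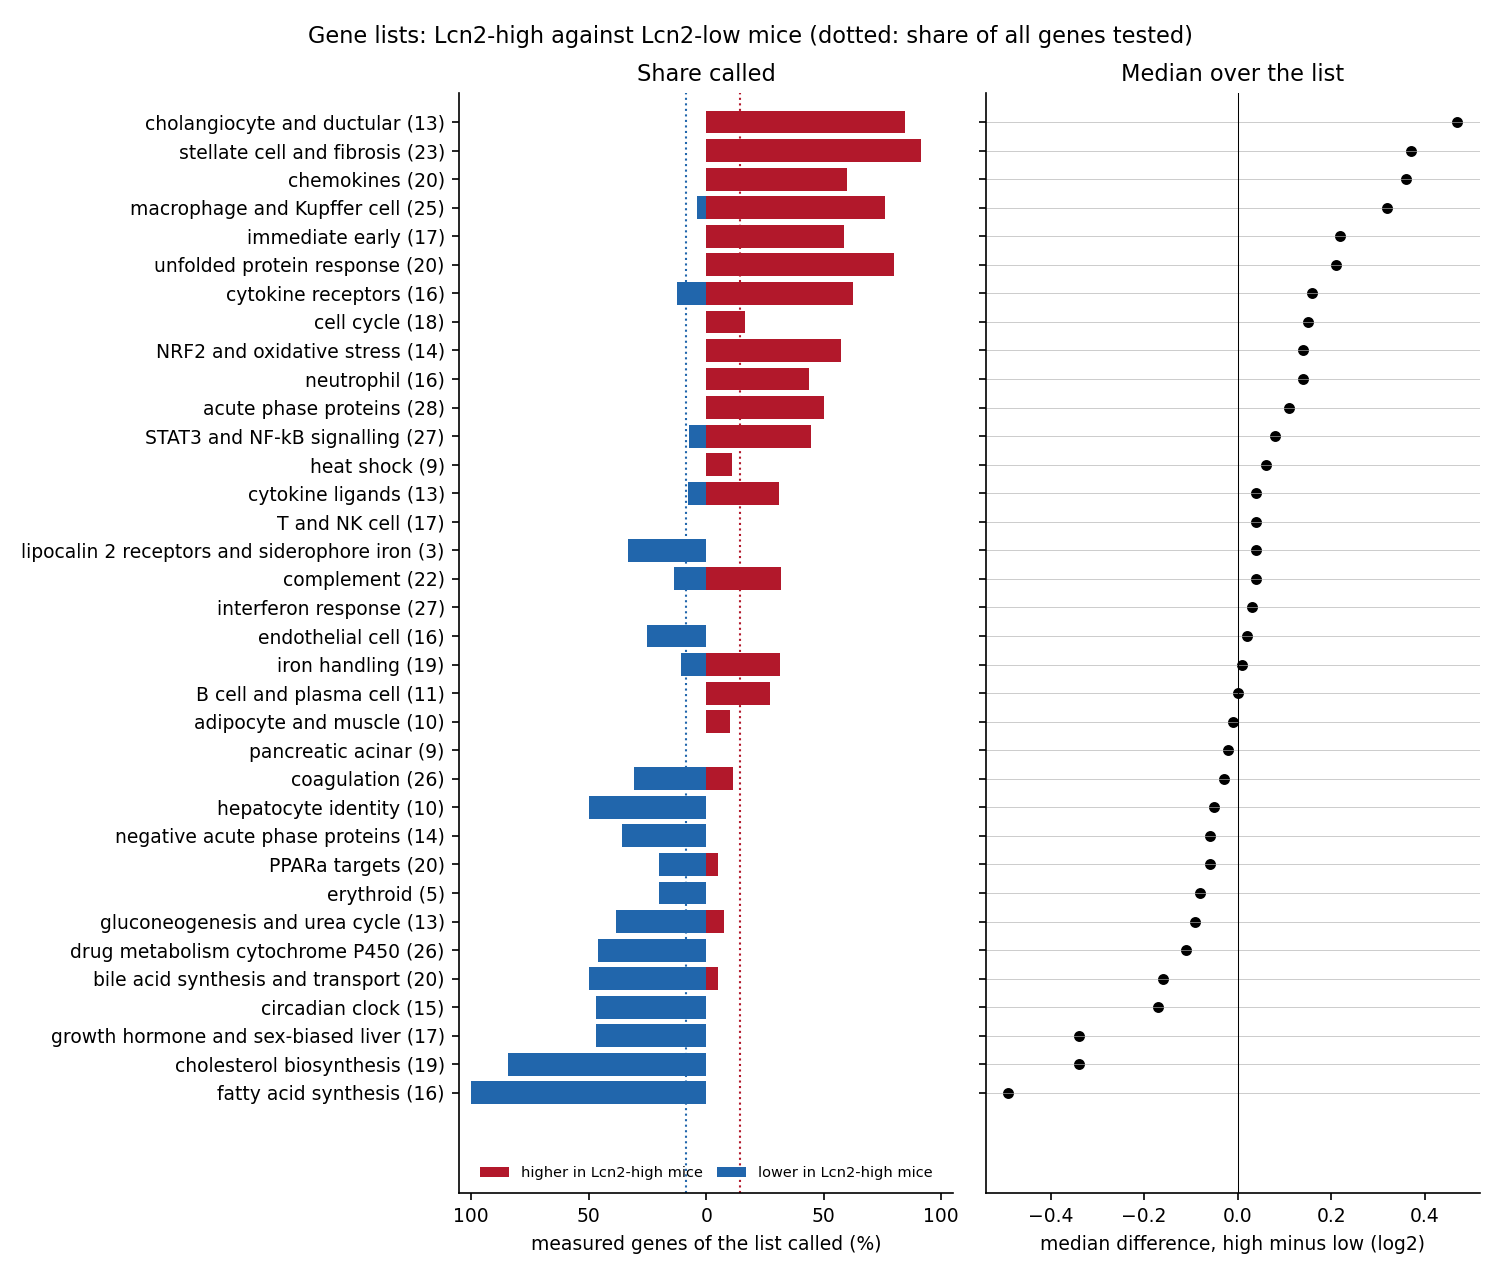
Left, share of the measured genes of each of 35 lists (number in parentheses) called higher (red, to the right) or lower (blue, to the left) in Lcn2-high than in Lcn2-low mice, with dotted lines at the shares of all genes tested, 14.5% and 8.76%. Right, the median difference of each list (log2, high minus low), from -0.49 for fatty acid synthesis to 0.47 for cholangiocyte and ductular genes.

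Transcripts of lipid synthesis genes were lower in Lcn2-high livers. All 16 measured genes of fatty acid synthesis were called lower, with a list median of -0.49, the lowest of the 35 lists. Fasn, fatty acid synthase, ran from -1.16 to 0.27 (median -0.18) in Lcn2-high mice, against -0.31 to 1.16 (median 0.35) in Lcn2-low mice. Many mice of both classes lay close to their strain mean, and the difference was -0.57 ± 0.12 (adjusted p = 0.000152). Pnpla3, a lipase of lipid droplets, differed by -1.05 ± 0.20, Thrsp, which tracks lipogenesis, by -0.85 ± 0.15, Acacb, an acetyl-CoA carboxylase, by -0.77 ± 0.13 and Acss2, which makes acetyl-CoA, by -0.73 ± 0.14. Scd1, the stearoyl-CoA desaturase, had a difference of -0.08 ± 0.03 at its brightest probe set, against -0.44 (adjusted p = 0.000241) at a dimmer one. The call at the brightest one was lost with only the 60 mice in the fit, with 20 mice per class and in strains with 3 or more mice. Of 19 measured genes of cholesterol synthesis 16 were lower and none higher, with a median of -0.34. Tm7sf2, a sterol reductase, differed by -0.64 ± 0.08, Fdps, farnesyl diphosphate synthase, by -0.55 ± 0.15, Sqle, squalene epoxidase, by -0.53 ± 0.16 and Stard4, a sterol carrier, by -0.53 ± 0.07.

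Transcripts of enzymes that clear drugs, steroids and bile acids were lower in part. The largest decrease of any called gene was that of Sult3a1, a sulfotransferase, which ran from -2.43 to 0.35 (median -0.85) in Lcn2-high mice, against -0.28 to 2.98 (median 0.61) in Lcn2-low mice, a difference of -1.70 ± 0.21 (adjusted p = 5.87e-11). It was followed by Acot3, a peroxisomal thioesterase (-1.25 ± 0.19), Dct, a melanin-pathway enzyme (-1.14 ± 0.18), Pnpla3 and Eci3, an enoyl-CoA isomerase (-1.02 ± 0.16). The rest of the 15 largest were Acpp, Slc22a26, Cnmd, Rgs16, Cux2, Thrsp, Sult2a2, Acacb, Cyp17a1 and Dntt, at -0.98 to -0.75. Of 26 measured drug-metabolizing cytochrome P450 genes and regulators 12 were lower and none higher (median -0.11), with Cyp2b9 at -0.49 ± 0.07 and Cyp2c37 at -0.46 ± 0.11, while Cyp3a11 and Cyp1a2 had differences of 0.03 and 0.03. Of 20 genes of bile acid synthesis and transport 10 were lower and 1 higher (median -0.16), among them Cyp8b1, which makes cholic acid (-0.48 ± 0.09), and Slc10a1, the bile acid uptake carrier (-0.35 ± 0.05). Cyp7a1, the rate-limiting enzyme of bile acid synthesis, had a difference of -0.24 without a call.

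Further liver lists are set against the shares of all genes, 14.5% called higher and 8.76% lower. Of 17 growth hormone and sex-biased genes 8 were lower and none higher (median -0.34), with Cux2, a female-biased transcription factor of mouse liver, at -0.87 ± 0.20. Of 20 PPARa targets 4 were lower and 1 higher (median -0.06), of 13 gluconeogenesis and urea cycle genes 5 were lower and 1 higher (median -0.09), of 26 coagulation genes 8 were lower and 3 higher (median -0.03), and of 22 complement genes 3 were lower and 7 higher (median 0.04). The shares called higher in the PPARa, gluconeogenesis and coagulation lists were below that of all genes, and the share of complement genes called lower was close to the 8.76% of all genes. The plasminogen activator Plat was higher by 0.78 ± 0.10 and the complement pore components C6 and C8a by 0.43 ± 0.10 and 0.37 ± 0.07. Of 15 circadian clock genes 7 were lower and none higher (median -0.17). Dbp, a clock-driven transcription factor, ran from -2.19 to 1.03 (median -0.36) in Lcn2-high mice, against -1.02 to 2.01 (median 0.26) in Lcn2-low mice, with wide overlap and a difference of -0.69 ± 0.20 (adjusted p = 0.00829). The hour of collection is not in the labels, and its part in the class differences was not tested. Lists for pancreas, red cells and fat or muscle, which would show carried-over tissue, held 1 gene called higher, Fabp4 (0.27 ± 0.07), and 1 lower, Klf1 (-0.43 ± 0.07), of 24 measured.

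**Figure D3:**
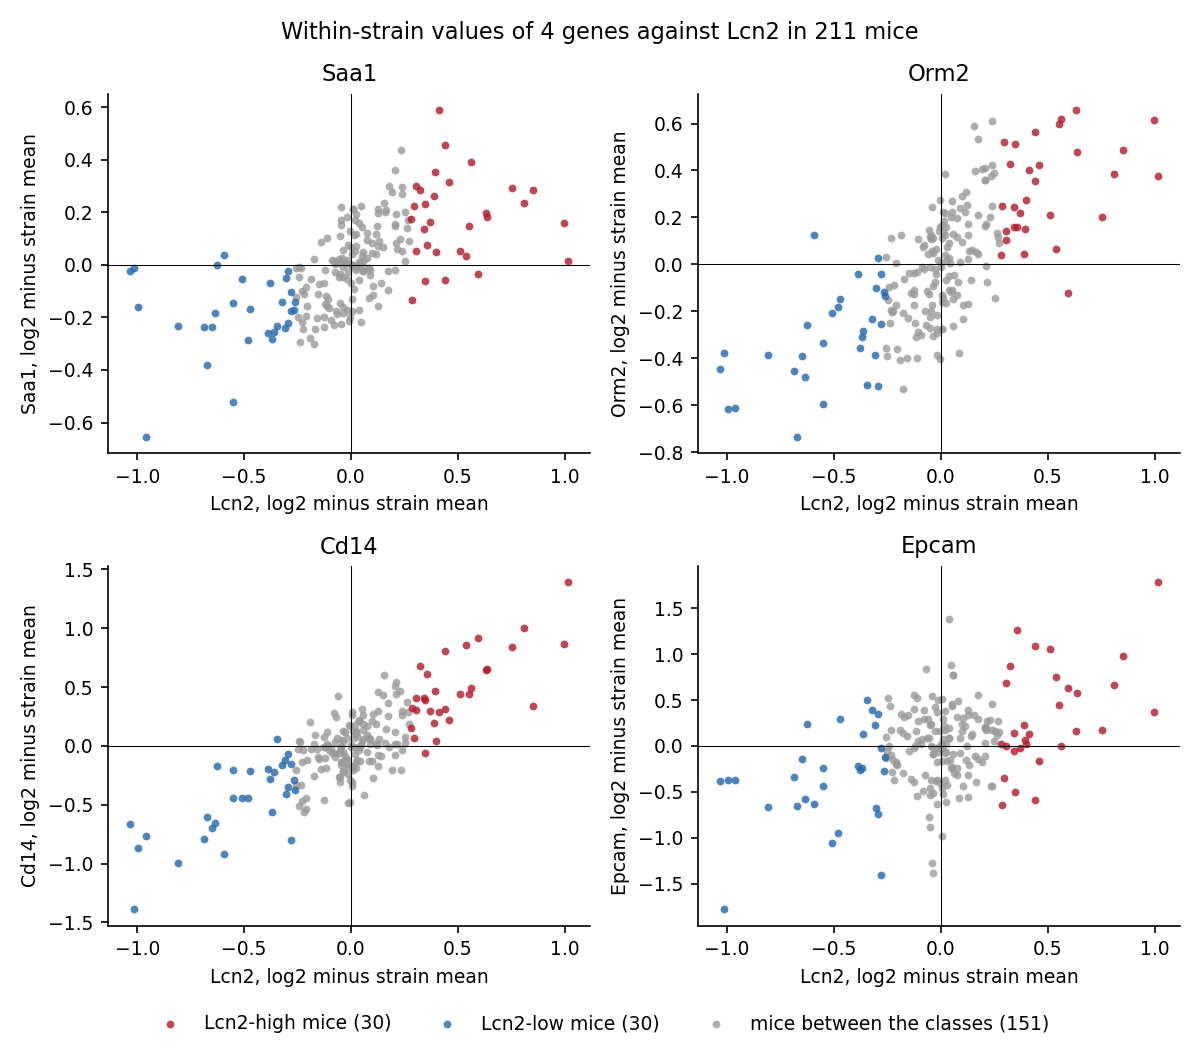
Within-strain log2 values (signal minus strain mean) of Saa1, Orm2, Cd14 and Epcam (vertical axes) against those of Lcn2 (horizontal axis) in 211 mice, with Lcn2-high mice in red, Lcn2-low mice in blue and the 151 mice between the classes in gray. The classes are set by the horizontal axis; Cd14 kept closest to Lcn2 (r = 0.82), and Epcam spread widest around it (r = 0.44).

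The mice of neither class allowed the same genes to be looked at in livers that did not define the classes. Among 135 such mice in 58 strains, the slope of each gene on Lcn2 was fitted with strain held fixed, in log2 units per log2 unit of Lcn2. Lcn2 varied little in these mice, within -0.26 to 0.27 of the strain mean, so that slopes were less precise. Adjusted over all probe sets by limma, 10 genes rose with Lcn2 (0.0585% of genes tested) and none fell (0.00%). At an unadjusted p under 0.05 there were 856 rising and 510 falling. The 10 were also called higher in the classes. Saa1, with a slope of 0.63 ± 0.10, and Orm2, with 1.02 ± 0.16, had the lowest adjusted p (0.00031 each), followed by Saa2 with 0.62 ± 0.10 (adjusted p = 0.000534). Cd14 had a slope of 0.84 ± 0.17, Timp1 of 0.90 ± 0.19, Mmp12 of 0.70 ± 0.15, Cxcl1 of 0.86 ± 0.18 and Steap4 of 0.47 ± 0.10. Vnn3, a pantetheinase, and Naip2, a sensor of bacterial proteins in the inflammasome, completed the set with slopes of 0.44 ± 0.09 and 0.54 ± 0.11.

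In these mice all 28 acute phase genes had a positive slope (median 0.21), also the 7 whose class difference was negative, and 15 had an unadjusted p under 0.05. Over all genes tested the median slope was 0.01, and 1366 of 17096 had an unadjusted p under 0.05. Genes of a list can vary together, as Saa1 and Saa2 did (r = 0.89), so their slopes are not independent of each other. The slopes of Fga, Fgb and Fgg were 0.05 ± 0.06, 0.03 ± 0.05 and 0.01 ± 0.06, and that of Crp 0.03 ± 0.08. Fatty acid synthesis had 15 of 16 negative slopes (median -0.34) and cholesterol synthesis 19 of 19 (median -0.29), with no gene past the adjusted threshold. Of the genes with the largest class differences Cd14, Timp1 and Mmp12 were called here, but others were not. Cbr3 had a slope of 0.38 ± 0.35, Nupr1 of 0.14 ± 0.26, Derl3 of 0.03 ± 0.31 and Sult3a1 of 0.14 ± 0.49, against class differences of 1.44, 0.97, 0.97 and -1.70. The unfolded protein response had 12 positive and 8 negative slopes (median 0.04), and interferon genes 26 positive and 1 negative (median 0.21). Whether a slope differs between the 2 sets of mice was not tested.

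**Figure D4:**
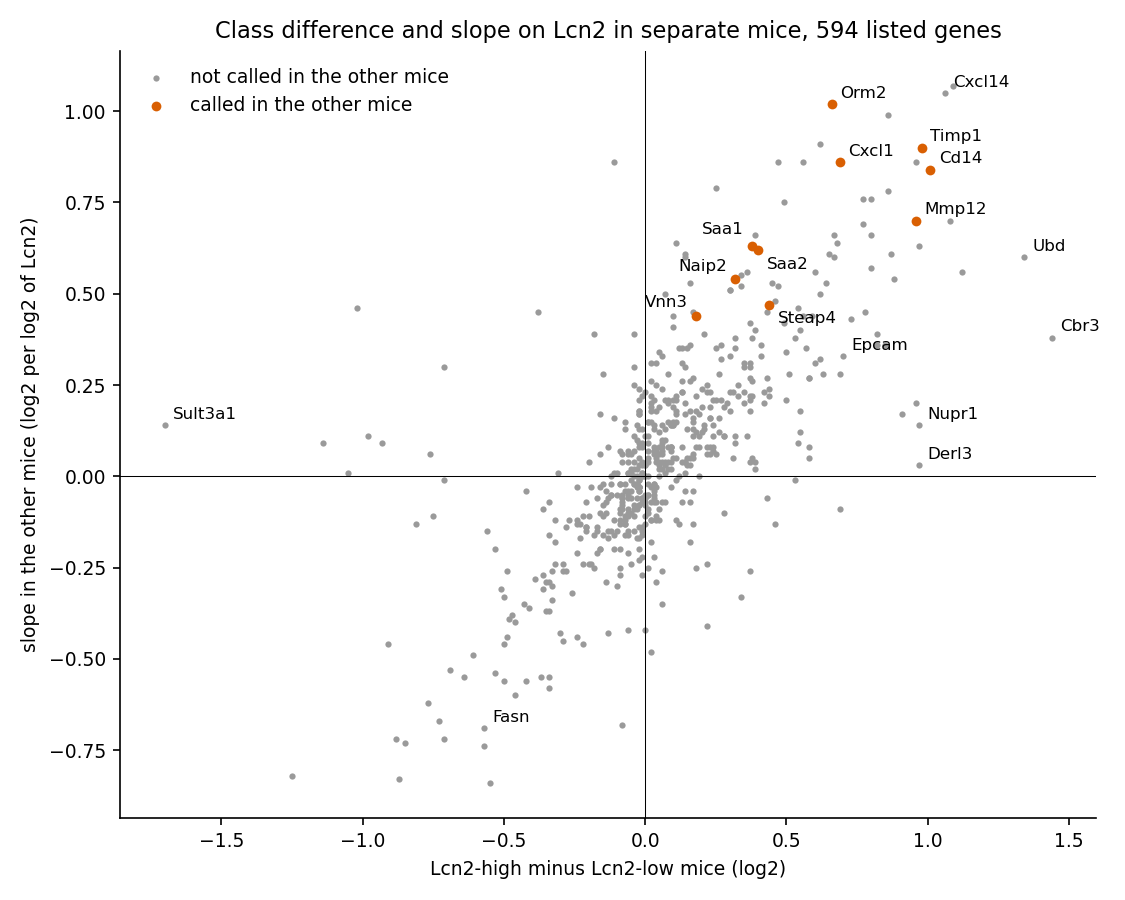
Class difference (horizontal, Lcn2-high minus Lcn2-low mice, log2) and slope on Lcn2 in 135 mice of neither class (vertical, log2 per log2 of Lcn2) for 594 genes named by the lists and rules, with the 10 genes called in those mice in orange. Saa1, Saa2 and Orm2 stood high on the vertical axis at class differences of 0.38 to 0.66, while Cbr3 and Sult3a1, at 1.44 and -1.70, had slopes of 0.38 and 0.14.

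Over all 211 mice the genes whose within-strain values ran closest to Lcn2 were Cd14 (Pearson's r = 0.82), Tmem176b (0.82), Mmp12 (0.81), Timp1 (0.79), Steap4 (0.77), Tpd52 (0.76), Lpl (0.76), Tmem176a (0.76), Emp1 (0.75), Tgm2 (0.75), Capg (0.75), Cxcl14 (0.74), Cstb (0.74), Uap1l1 (0.74) and Flna (0.74). These r describe the same arrays that set the classes, share each array's quality and the strain means, and carry no p. Lpl, lipoprotein lipase, was higher in Lcn2-high mice by 0.44 ± 0.04, Tmem176b by 0.31 ± 0.03 and Tgm2, a transglutaminase, by 0.37 ± 0.04. Saa1, Saa2 and Orm2 had r of 0.63, 0.65 and 0.73. The strain means, which the choice of mice did not use, gave r over 87 strains of 0.89 for Cd14, 0.85 for Timp1, 0.85 for Steap4, 0.70 for Saa1 and 0.80 for Orm2, and of 0.41 for Saa3 and -0.45 for Crp.

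Genes that each followed Lcn2 did not all follow each other. Saa1 had r = 0.89 with Saa2 and 0.74 with Orm2, but 0.38 with Cd14, 0.15 with Cbr3 and 0.02 with Epcam. Cd14 in turn had r = 0.86 with Timp1, 0.71 with Cbr3 and 0.65 with Epcam. Among list means over the 211 mice, acute phase genes had r = 0.17 with ductular genes and -0.64 with fatty acid synthesis, while matrix genes had r = 0.76 with ductular genes. Fatty acid and cholesterol synthesis had r = 0.91.

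The 27 strains with both classes showed the same spread. The mean of the acute phase list was higher in the Lcn2-high mouse in 26 of 27 strains, as were those of the macrophage and neutrophil lists, that of the matrix list in 25, of the ductular list in 22 and of the interferon list in 15. The mean of fatty acid synthesis was lower in 23. Each strain here has 1 or 2 Lcn2-high mice against 1 Lcn2-low mouse, so that a single strain has no replicate check. CXB3/ByJ had the largest Lcn2 difference, 2.03, with 2.78 for Cd14, 3.59 for Cbr3 and 3.57 for Epcam, but 0.03 for Saa1, and 14 of its 28 acute phase genes were higher. AXB19a/PgnJ, with an Lcn2 difference of 1.02, had all 13 ductular genes higher and 11 of 28 acute phase genes. BXD11/TyJ had differences of 0.06 for Saa1 and 0.04 for Orm2, with 12 of 13 ductular and 20 of 23 matrix genes higher.

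BXD18/TyJ and BXD48/RwwJ showed the reverse. In BXD18/TyJ, with an Lcn2 difference of 0.77, 27 of 28 acute phase genes were higher but 3 of 23 matrix genes, and Timp1 differed by -0.15. In BXD48/RwwJ 25 of 28 acute phase genes, 2 of 23 matrix genes and 1 of 13 ductular genes were higher, and Orm2 differed by 1.04 with Timp1 at -0.53. BXA4/PgnJ had both patterns, with the largest Saa1 difference, 1.11, and 27 of 28 acute phase, 21 of 23 matrix and all 13 ductular genes higher. BXD66/RwwJ had the lowest median for fatty acid synthesis, -2.01, with none of 16 genes higher, while CXB3/ByJ, with the larger Lcn2 difference, had a median of -0.16 and a Sqle difference of 1.43.

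**Figure D5:**
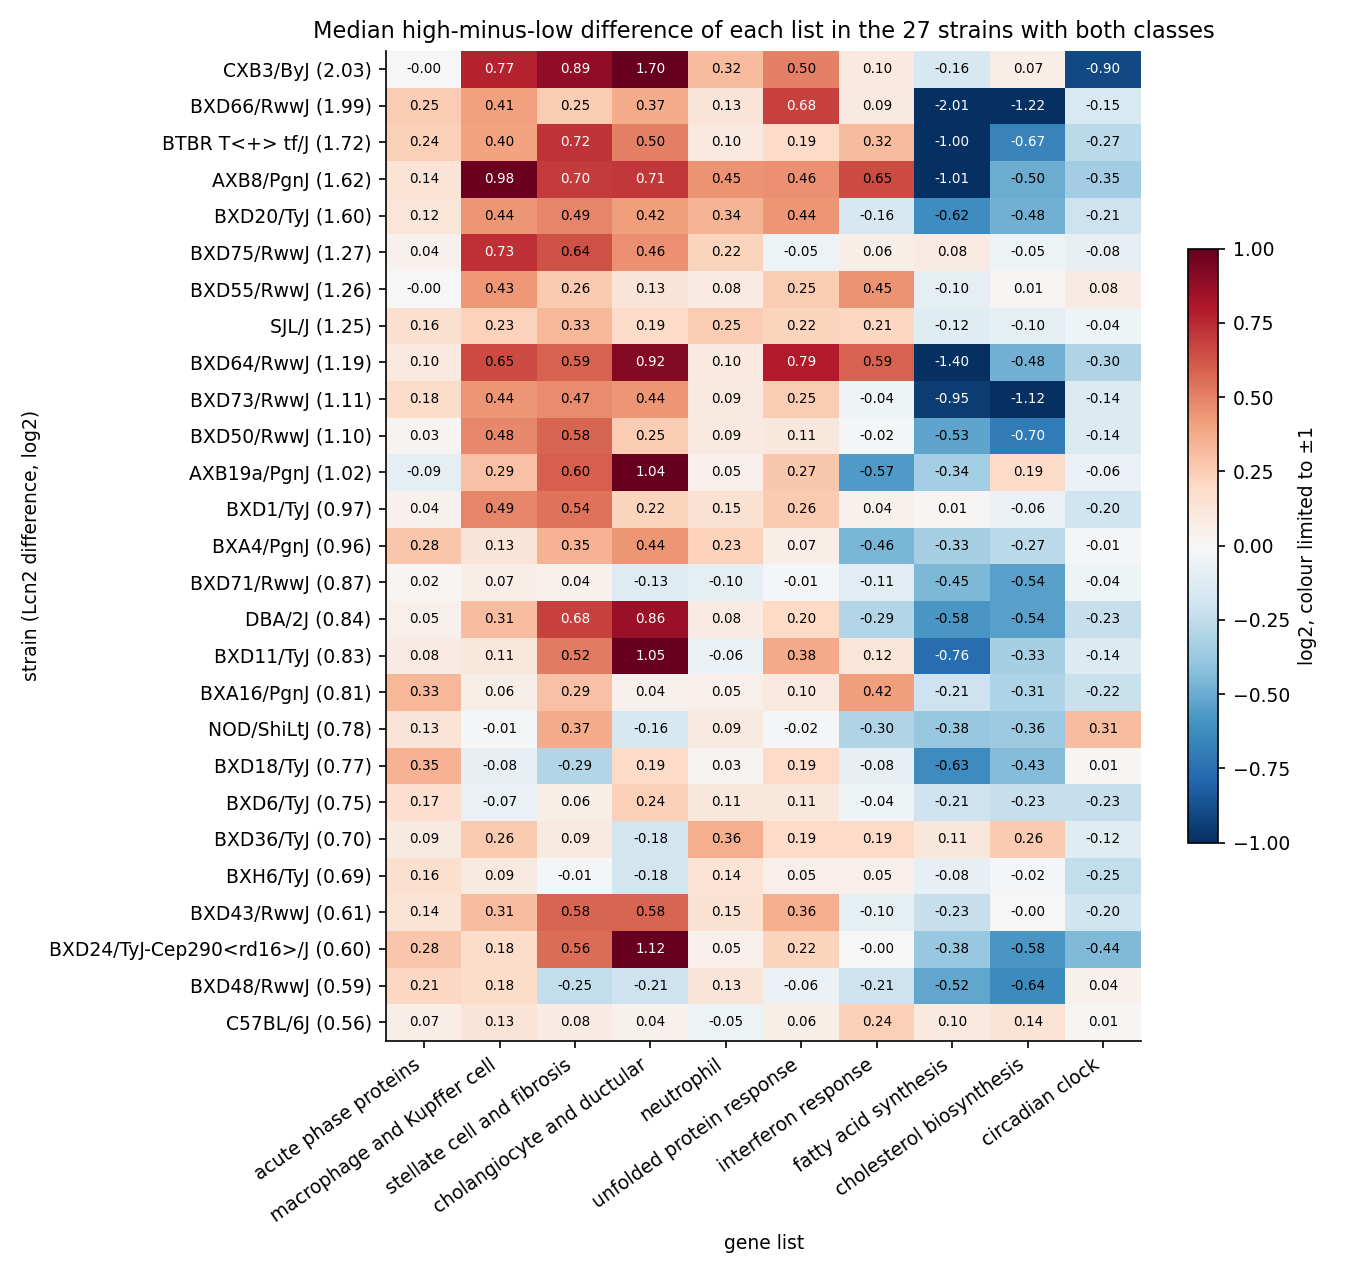
Median high-minus-low difference (log2; printed in each cell, color limited to ±1) of 10 gene lists (columns) in the 27 strains with both classes (rows, with the strain's Lcn2 difference in parentheses, largest at the top). Acute phase medians ran from -0.09 in AXB19a/PgnJ to 0.35 in BXD18/TyJ, and ductular medians reached 1.70 in CXB3/ByJ.

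The class differences were also set against the strain panel and RNA quality. With a term that let the class difference vary between BXD and all other strains, no gene had a different class difference by limma after adjustment. At an unadjusted p under 0.05 there were 911 of 17096 genes, close to the share that chance alone passes at this threshold. The drop from the 3′ to the 5′ probes of the beta-actin transcript, which grows as RNA degrades, ran from 0.46 to 1.34 (median 0.79) in Lcn2-high mice, against 0.46 to 1.28 (median 0.86) in Lcn2-low mice, and was larger in the Lcn2-high mouse in 13 of 27 strains. The same drop in the Gapdh transcript ran from 0.17 to 0.71 (median 0.44) in Lcn2-high mice, against 0.08 to 0.78 (median 0.46) in Lcn2-low mice. It was larger in the Lcn2-high mouse in 16 of 27 strains. With the beta-actin measure in the fit 2546 genes were higher and 1534 lower. Array medians spanned 3.44 to 3.51 in Lcn2-high mice and 3.43 to 3.50 in Lcn2-low mice.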

How the data were processed

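Liver RNA of 220 mice was measured on Affymetrix HT MG-430 PM arrays, 1 array per mouse. The authors deposited log2 signals after robust multi-array averaging (RMA); GCOS is also named in the submitters' processing notes, and no version is given for either tool. RMA makes whole arrays alike in distribution and holds no counts, so depth does not apply and the number of mice limits precision. Arrays compress differences at the bottom and the top of their scale, which ran from 1.90 to 13.94.

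Of 45141 probe sets, 104 array controls were left out. Platform annotation gave 1 gene symbol to 28898 of the rest, several to 551 and none to 15588. Each of 17097 genes was read from its brightest probe set, and Lcn2, with 1 probe set, was left out of all tests. The 9 strains with 1 mouse were not used. Each of the other 211 mice was placed by its Lcn2 minus the strain mean. The test was limma 3.58.1 (R 4.3.3) with strain and class as terms over all 211 mice (122 residual degrees of freedom). Benjamini-Hochberg adjustment ran over all 45036 probe sets tested, and the 17096 genes were then counted by their brightest probe set. A second limma fit regressed each gene on Lcn2 within strains in 135 mice of neither class that shared a strain with another such mouse (76 residual degrees of freedom). The scripts were tested on simulated data. Groups came from the strain labels, and replicate numbers follow accession order. Array slide and date were not used here.

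Named genes were the 15 called genes with the largest difference in each direction, all measured genes of the acute phase, negative acute phase, cytokine, STAT3 and NF-kB, lipocalin receptor and neutrophil lists, up to 4 of each other list by size among the called, the 15 genes closest to Lcn2 and genes called in the second fit. Others, such as Fasn, Lgals3, Cd68 and uncalled members of lists, were added after their values were seen. The mice and lists were chosen with earlier results of these data known. Alternatives were other residual treatments, class sizes, filters, centring, an RNA quality term and leaving out each mouse. Fits by strain panel and the strain-mean r were added after seeing the data.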

Additional observations from a re-analysis of the deposited data

Results flagged for a closer look

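The strain with 4 mice, BXD20/TyJ, was the only one large enough to look for a mouse far from the rest of its strain, by Dixon's ratio above 0.829. Of 225 genes named in the text 7 passed, and chance passes about 1 in 20. Replicate 3 was the Lcn2-low mouse with the lowest within-strain Lcn2 of all, -1.03, and replicates 1 and 2 were Lcn2-high mice, so that gaps in genes that follow Lcn2 are not independent of the choice of mice. Replicate 3 had the lowest Lrg1, at 10.35 against 10.95 to 11.03 in the other 3 mice, and the lowest Nfkbia, at 9.61 against 9.78 to 9.79. The same mouse had the highest Dntt, at 6.66, with the next at 5.81. Replicate 2 had the highest Saa2, at 11.77 with the next at 11.42, and the highest Jak1, at 9.49 with the next at 9.32. Replicate 1 had the highest Mcm6, at 7.40 with the next at 6.73, and the lowest Cd79a, at 3.91 with the next at 4.08.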

How the results depend on the processing

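Counts of genes called higher and lower in Lcn2-high mice fell to 1037 and 492 when only strains with 3 or more mice were kept, a set with fewer mice. Treating the residuals of the 60 mice as independent called 3309 and 2361. The BXD strains alone called 1381 and 809, and the other strains alone 1227 and 493. Leaving out each of the 60 mice gave 2267 to 2584 higher and 1334 to 1585 lower genes, the lowest without either CXB3/ByJ mouse, which removes the strain. The other alternatives stayed within 1.5 times of 2480 and 1498, and median-centring of the arrays gave 2315 and 1661. In mice of neither class, 12 genes rose and 0 fell by limma with dim probe sets left out, with median-centring and with the RNA quality term, against 10 and 0 without these. Of 152 named genes that were called, 144 kept the call in all 60 fits without 1 mouse. With strains of 3 or more mice, 44 lost it, among them Epcam, Sqle, Dbp and Tlr4; no named gene that was called in either fit changed direction between alternatives. Among genes called at the brightest probe set, second probe sets went the other way for Il1rap (0.01), Nfkbiz (-0.05), Osmr (-0.02), Tnfrsf1b (-0.02), Tpd52 (-0.02) and Trem2 (-0.12). A further 29 second probe sets, of 23 genes that include Epcam, Il10rb, Il17ra, Irak3 and Jak1, kept the direction without the call. Another 79, of 58 genes, had the same outcome as the brightest probe set. For called genes that means direction and call. Genes not called at either probe set are also among the 79, and their direction could differ, as for Stat3 (-0.03) and Mt1 (-0.06) at second probe sets. The cause was not tested. In the 27 strains with both classes, the strain term set Lcn2-high against Lcn2-low mice of the same strain. BXD13/TyJ had an Lcn2-high but no Lcn2-low mouse, and SM/J, AXB12/PgnJ and AXB2/PgnJ the reverse. In these strains the class mouse was set against mice between the classes. With only the 60 mice in the fit, strain kept, 2225 and 1188 genes were called. There 10 named genes lost the call, Cd163, Il18, Il1r2, Jak1, Nfkbia, Scd1, Tnfrsf1a, Top2a, Ttr and Xbp1. No paired analysis was possible by replicate number because those numbers follow accession order.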
